A study of Mus musculus with 12 samples.

Results

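Lipid droplets are the organelles in which liver cells store triglyceride and cholesteryl ester, and the genes described here encode proteins that coat them, let them grow or bud, or guard their fat against lipase. A list of 10 mouse genes was taken: the perilipin genes Plin2, Plin3, Plin4 and Plin5, the CIDE genes Cidea, Cideb and Cidec, the FIT genes Fitm1 and Fitm2, and G0s2. Of these 10 genes, 9 had a probe set annotated to that gene alone, among 22180 genes measured in that way. Cideb had its probe set shared with the neighbouring gene Nop9 and was not analysed here. Fitm1 and G0s2 had 2 single-gene probe sets each, and every gene was read from its brightest probe set, by the mean of the 12 arrays.

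Liver RNA came from male C57BL6/J mice, 8 to 10 weeks old, that had received an Ad5 adenovirus by tail vein. The virus carried human apolipoprotein F (hApoF, 6 arrays, replicates 7 to 12) or green fluorescent protein (GFP, the control virus, 6 arrays, replicates 1 to 6). ApoF is a secreted protein that travels on lipoproteins and inhibits lipid transfer between them. The mice were killed 4 days after injection, in the afternoon, after 6 h without food. All animals of both groups carried a virus. Uninjected livers were not analysed here, and no source used here gives the promoter of the constructs or the viral dose. The labels do not say that every array had an animal of its own. The p-values accordingly cover the spread between these 12 samples, which may in part be technical.

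A perilipin coat decides which lipases reach the stored fat. In mouse liver, Plin2 is the coat protein of most hepatocyte droplets, and Plin5 is linked to fasting and to contact between droplets and mitochondria. CIDE proteins sit where droplets touch and pass lipid from the smaller to the larger one, FIT proteins act in the endoplasmic reticulum, where droplets form, and G0S2 inhibits adipose triglyceride lipase. Several of these genes are known targets of the fatty acid sensing receptors PPAR alpha and PPAR gamma.

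The array medians lay between 4.93 and 5.03 on the log2 scale. One control array, GFP 4, had a lower quartile of 3.80 and an upper quartile of 6.67, inside or next to the range of the hApoF arrays (3.74 to 3.80 and 6.67 to 6.73) and outside that of the other GFP arrays (3.66 to 3.72 and 6.73 to 6.81). For the 9 genes, other droplet genes and PPAR alpha targets, values without it are given where a call or a count moved. Hepatocyte markers were bright, with Alb at 13.44 ± 0.03 (SD, n = 6) under the GFP virus and 13.50 ± 0.03 (n = 6) under hApoF.

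Of the 9 measured genes, 3 fell in hApoF livers (Cidec, Fitm2 and Plin3), 0 rose and 6 did not pass the test. The test was limma over all 22180 genes with Benjamini-Hochberg adjustment and a threshold of 0.05, by which 6.91% of all genes changed (4.80% of all genes lower and 2.11% higher than in GFP livers). The log2 change was below 0 for 8 of the 9 genes, against 42.3% of all genes, and the median change was -0.28, against 0.03 over all genes. An unadjusted limma p under 0.05 was found for 7 of the 9, of which 6 were lower, against 21.3% of all genes. For 0 of the 9 genes were the groups free of overlap, where 4.98% of all genes had groups that did not overlap. Of the 9 genes, 1 (Cidea) had a mean below the median of all probe sets, while 12444 of all 22180 genes had one above it. These shares of all genes are therefore not matched for brightness, and shares among bright genes alone were not examined. The count of fallers was 1 without GFP 2, GFP 3, GFP 6, hApoF 7 or hApoF 12, and that remaining gene was Cidec each time. It was 4 without GFP 4, with Plin4 added. The spread of values on an array also differed between the groups, as given above. With quantile normalization repeated, which evens it out, the log2 changes were -0.64 for Cidec, -0.32 for Fitm2 and -0.21 for Plin3 (limma adjusted p = 0.014, 0.043 and 0.079).

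**Figure D1:**
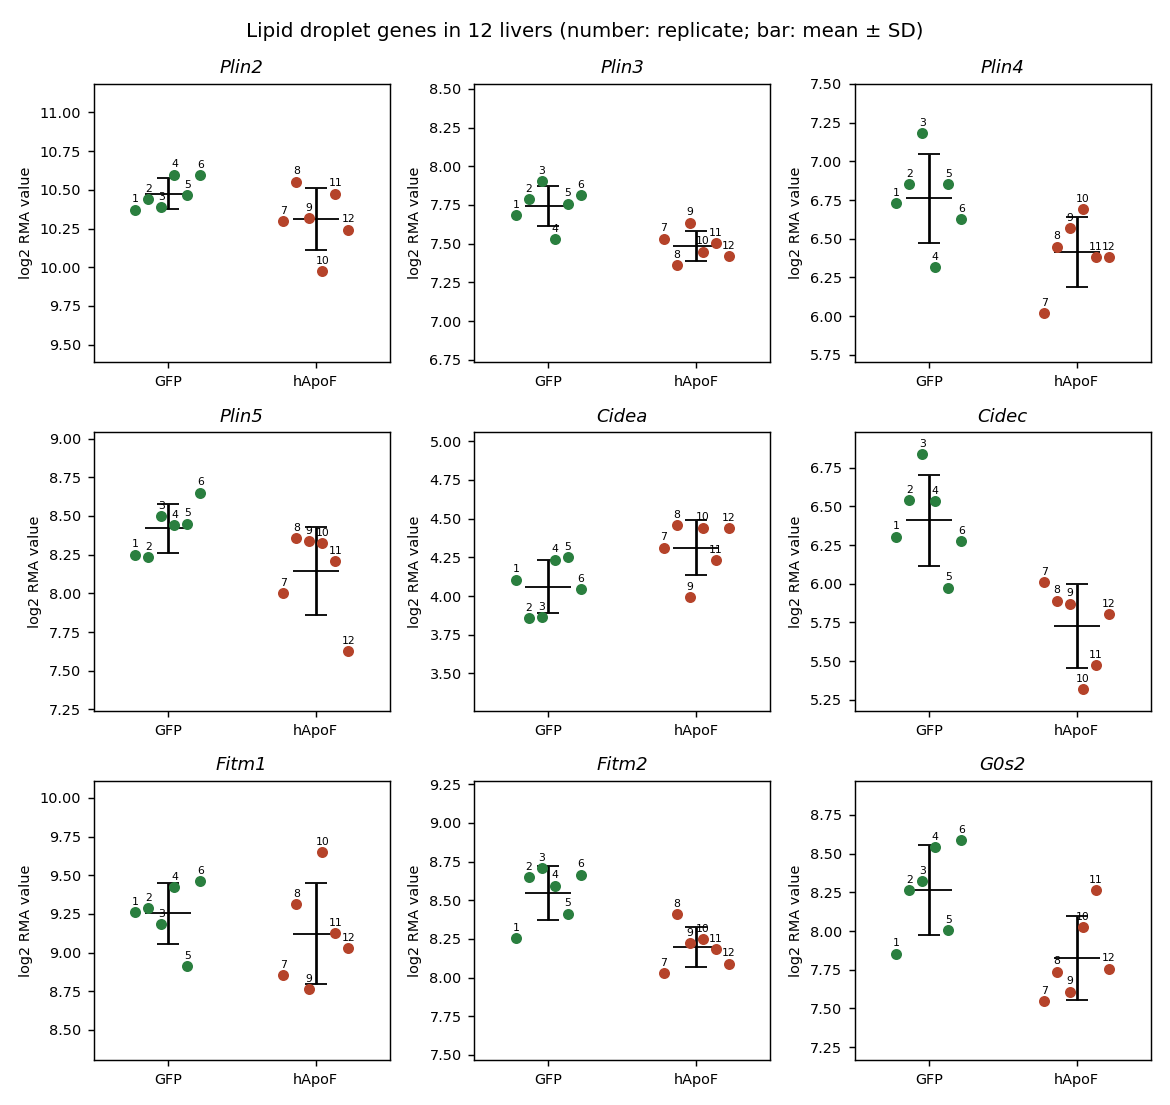
Log2 RMA values of the 9 measured genes (vertical axes, each spanning the same number of log2 units) in 6 GFP and 6 hApoF livers, each point 1 array with its replicate number, bars the mean ± SD. All 6 hApoF points lie below the GFP median for Cidec, Fitm2, Plin3, Plin4, Plin5 and G0s2, 5 of 6 lie above it for Cidea, and those of Fitm1 and Plin2 lie on both sides of it.

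The stretches around the transcription starts of the 3 genes that fell, with that of Plin2 as a droplet gene that did not pass, are shown because these members moved in the same direction. Each runs 5′ to 3′ on the gene's strand from 250 bases before the start to 50 bases after its first base, from RefSeq on the build GRCm38.p6, and capitals mark every match to 1 of the motifs searched. Such windows were found for 9 of the 10 genes (11 windows), Cidea being left out.
Cidec, upstream start (chr6:113435711-113436010, minus strand): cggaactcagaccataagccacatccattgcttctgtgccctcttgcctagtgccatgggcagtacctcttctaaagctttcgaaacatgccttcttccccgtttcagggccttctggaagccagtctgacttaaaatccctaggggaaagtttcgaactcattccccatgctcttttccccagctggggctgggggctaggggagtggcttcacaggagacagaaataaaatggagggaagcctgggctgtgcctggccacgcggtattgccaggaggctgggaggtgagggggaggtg
Cidec, downstream start (chr6:113434715-113435014, minus strand): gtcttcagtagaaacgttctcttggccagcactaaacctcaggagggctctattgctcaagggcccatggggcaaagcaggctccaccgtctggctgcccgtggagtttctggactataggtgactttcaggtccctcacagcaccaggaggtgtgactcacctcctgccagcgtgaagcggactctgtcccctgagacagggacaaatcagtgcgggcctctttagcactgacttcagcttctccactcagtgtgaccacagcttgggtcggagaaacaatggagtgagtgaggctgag
Fitm2 (chr2:163472580-163472879, minus strand): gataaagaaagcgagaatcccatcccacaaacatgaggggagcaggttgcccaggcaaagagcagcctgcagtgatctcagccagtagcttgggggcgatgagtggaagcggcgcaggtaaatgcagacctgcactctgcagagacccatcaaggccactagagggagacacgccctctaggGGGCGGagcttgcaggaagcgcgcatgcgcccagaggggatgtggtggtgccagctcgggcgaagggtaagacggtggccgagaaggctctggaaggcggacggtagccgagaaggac
Plin3 (chr17:56290462-56290761, minus strand): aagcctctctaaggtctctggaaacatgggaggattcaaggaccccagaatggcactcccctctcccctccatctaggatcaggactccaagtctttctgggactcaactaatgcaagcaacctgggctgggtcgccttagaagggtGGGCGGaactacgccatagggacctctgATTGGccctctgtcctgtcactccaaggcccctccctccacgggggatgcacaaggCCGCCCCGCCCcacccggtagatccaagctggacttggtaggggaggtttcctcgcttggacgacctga
Plin2 (chr4:86670010-86670309, minus strand): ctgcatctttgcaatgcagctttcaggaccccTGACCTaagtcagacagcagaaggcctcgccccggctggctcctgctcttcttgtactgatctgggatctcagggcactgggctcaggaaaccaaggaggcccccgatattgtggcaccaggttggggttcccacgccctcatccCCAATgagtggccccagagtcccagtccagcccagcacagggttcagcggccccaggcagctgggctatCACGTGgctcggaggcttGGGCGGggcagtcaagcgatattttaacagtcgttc
The motifs were searched on both strands. The full direct repeat of the PPAR response element, AGGTCANAGGTCA, was in 0 of the 11 windows and in 0.0396% of all 32851 windows, and the single copy AGGTCA, which the repeat contains, was in 3 of 11 (Plin2 and both Plin5 windows) and in 16.3% of all. The E-box CACGTG was in the Plin2 window alone (7.15% of all), CCAAT in 4 of 11 (37.4% of all), the GC box GGGCGG in 7 of 11 (35.7% of all), and TATAAA in that of Cideb alone (13.6% of all). Neither Cidec window held any of these letters, the Fitm2 window held 1 match, and those of Plin3 and Plin2 held 4 matches each, 2 of the Plin3 matches overlapping. A match is a run of letters and not a known site.

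Cidec, whose protein gathers at droplet contacts and drives growth into large single droplets, had the largest change of the 9 genes. GFP livers had a lowest value of 5.97, a median of 6.42 and a highest value of 6.84, and hApoF livers 5.32, 5.84 and 6.01. The groups overlapped through 1 array on each side: GFP 5 lay just below hApoF 7, and the other 5 GFP arrays were above every hApoF array. The mean went from 6.41 ± 0.29 (SD, n = 6) to 5.73 ± 0.27 (n = 6), a log2 change of -0.68 with an SE of 0.14 (limma adjusted p = 0.00864, exact permutation p = 0.0043), or 1.60-fold lower with a 95% interval from 1.30-fold to 1.98-fold. The adjusted p stayed under the threshold in all 12 omissions of 1 array, between 0.0031 without GFP 5 and 0.025 without GFP 2, and was 0.0166 without GFP 4. In mice its level climbs in fat-laden liver, and it is a target of PPAR gamma.

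Cidea, the CIDE protein of brown fat, was dim. Its values ran from 3.86 to 4.25 with a median of 4.08 in GFP livers and from 3.99 to 4.46 with a median of 4.38 in hApoF livers, below the median of all probe sets on every array. It was the 1 member with a value above 0, at 0.25 (SE 0.10, limma adjusted p = 0.147, exact permutation p = 0.041), with 5 of the 6 hApoF arrays above the GFP median. The changes of Cidea and Cidec differed by 0.93 on the log2 scale (SE 0.23, exact permutation p = 0.0043, adjusted p = 0.035 over the 8 pairs of members that share a family). In the omissions of 1 array this difference lay between 0.81 and 1.06 and its adjusted p passed in 2 of 12 (without GFP 5 or hApoF 9), reaching 0.069 in others. With quantile normalization repeated, which evens out the array-wide spread, the changes were smaller in size, at 0.20 for Cidea and -0.64 for Cidec. Their difference was not tested in that setting.

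Fitm2, the FIT protein found in most tissues, fell. GFP livers had values of 8.25 (lowest), 8.62 (median) and 8.71 (highest), and hApoF livers 8.03, 8.20 and 8.41. As with Cidec, 5 hApoF arrays lay below every GFP array, and the overlap came from GFP 1 and hApoF 8. The means were 8.55 ± 0.18 (SD, n = 6) and 8.20 ± 0.13 (n = 6), a log2 change of -0.35 with an SE of 0.09 (limma adjusted p = 0.0296, exact permutation p = 0.0043), or 1.27-fold lower with a 95% interval from 1.12-fold to 1.46-fold. The call was lost in 7 of 12 omissions, reaching a limma adjusted p of 0.073 when GFP 3 was omitted, and also without GFP 2, GFP 6, hApoF 7, hApoF 9, hApoF 11 or hApoF 12. Without GFP 4 the limma adjusted p was 0.043.

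Fitm1, a FIT protein of skeletal and heart muscle in mice, did not pass. Its values were 8.91 to 9.46 with a median of 9.27 in GFP livers and 8.76 to 9.65 with a median of 9.08 in hApoF livers, so that the hApoF range enclosed the GFP range. The log2 change was -0.13 with a 95% interval from -0.42 to 0.16 (limma adjusted p = 0.628, exact permutation p = 0.409). That value moved with single arrays: it was -0.06 without hApoF 9, -0.08 without hApoF 7, -0.20 without GFP 5 and -0.24 without hApoF 10, and it passed in none of the 12 omissions. It was -0.03 for the mean of both Fitm1 probe sets. The changes of the 2 FIT genes were not shown to differ, at a difference of 0.22 (SE 0.14, exact permutation p = 0.160, adjusted p = 0.641 over 8 pairs). The dimmer Fitm1 probe set had means of 6.22 ± 0.07 (SD, n = 6) and 6.29 ± 0.28 (n = 6), a change of 0.07 (SE 0.11), opposite in sign. Its value was 5.72 in hApoF 12, and the other hApoF arrays lay at 6.35 to 6.46, above the highest GFP value of 6.32. RefSeq places Fitm1 on the plus strand. Among the single-gene probe sets with the nearest ID numbers on the same chromosome, 40 of 40 around the brighter probe set belonged to plus-strand genes, and 41 of 43 around the dimmer one to minus-strand genes. Of 9 markers of muscle cells, Myh4 (3.76 in GFP livers), Myh1 (3.32) and 4 others had a mean below the median of all probe sets, and Acta1 (5.48), Mb (5.39) and Tnnt3 (5.38) had one above it.

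Plin3, the perilipin of the cytosol that moves onto newly formed droplets, fell. Its lowest, median and highest values were 7.53, 7.77 and 7.91 in GFP livers and 7.36, 7.48 and 7.64 in hApoF livers. Of the GFP arrays, 5 lay above every hApoF array, and the exception was GFP 4. The means were 7.75 ± 0.13 (SD, n = 6) and 7.48 ± 0.10 (n = 6), a log2 change of -0.26 with an SE of 0.08 (limma adjusted p = 0.0493, exact permutation p = 0.0065), or 1.20-fold lower with a 95% interval from 1.07-fold to 1.34-fold. The limma adjusted p was 0.0156 without GFP 4 and 0.042 without hApoF 9, and it missed the threshold in the other 10 omissions, up to 0.113 without GFP 3. It was 0.079 when arrays were quantile normalized again and 0.074 when all probe sets entered the fit.

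Plin2, the main coat of hepatocyte droplets, did not pass. GFP livers ranged from 10.37 to 10.60 with a median of 10.45, and hApoF livers from 9.98 to 10.55 with a median of 10.31. In the hApoF group 4 arrays lay below every GFP array and 2 (hApoF 8 and hApoF 11) above the GFP median. The log2 change was -0.17 (SE 0.09, 95% interval -0.36 to 0.03, limma adjusted p = 0.322, exact permutation p = 0.091), and -0.10 without hApoF 10. A fall of more than 1.28-fold lies outside that interval.

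Plin5, the perilipin of cells that burn fat, had values of 8.23, 8.45 and 8.65 (lowest, median, highest) in GFP livers and 7.63, 8.27 and 8.36 in hApoF livers. All 6 hApoF arrays lay below the GFP median, with hApoF 12 lowest. Its log2 change was -0.28 (SE 0.12, 95% interval -0.54 to -0.02), which did not pass over all genes (limma adjusted p = 0.195, exact permutation p = 0.041), and was -0.18 without hApoF 12. Plin4, a perilipin best known from fat and muscle, had values of 6.32, 6.79 and 7.18 in GFP livers and 6.02, 6.41 and 6.69 in hApoF livers. All 6 hApoF arrays lay below the GFP median here too, and GFP 4 was the lowest GFP array. Its log2 change was -0.35 (SE 0.13, limma adjusted p = 0.142, exact permutation p = 0.045), and without GFP 4 it was -0.44 with a limma adjusted p of 0.038. The changes of the 4 perilipin genes were not shown to differ in any of their 6 pairs, with differences between -0.07 and 0.18 and adjusted exact permutation p of at least 0.716 over the 8 pairs.

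G0s2, the inhibitor of adipose triglyceride lipase, had values of 7.85, 8.29 and 8.59 (lowest, median, highest) in GFP livers and 7.55, 7.75 and 8.26 in hApoF livers. All 6 hApoF arrays lay below the GFP median, and hApoF 11 was the highest of them. The log2 change was -0.44 (SE 0.14, 95% interval -0.74 to -0.14), the second largest in size after Cidec, and did not pass over all genes (limma adjusted p = 0.078, exact permutation p = 0.026). It passed without GFP 1 (limma adjusted p = 0.039), without hApoF 11 (0.030) and among brighter genes only (0.044). The dimmer G0s2 probe set had means of 6.01 ± 0.26 (SD, n = 6) and 5.84 ± 0.14 (n = 6), a change of -0.17 (SE 0.12). RefSeq places G0s2 on the minus strand. Of the probe sets with the nearest ID numbers on the same chromosome, 26 of 26 around the brighter one belonged to minus-strand genes and 24 of 24 around the dimmer one to plus-strand genes.

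**Figure D2:**
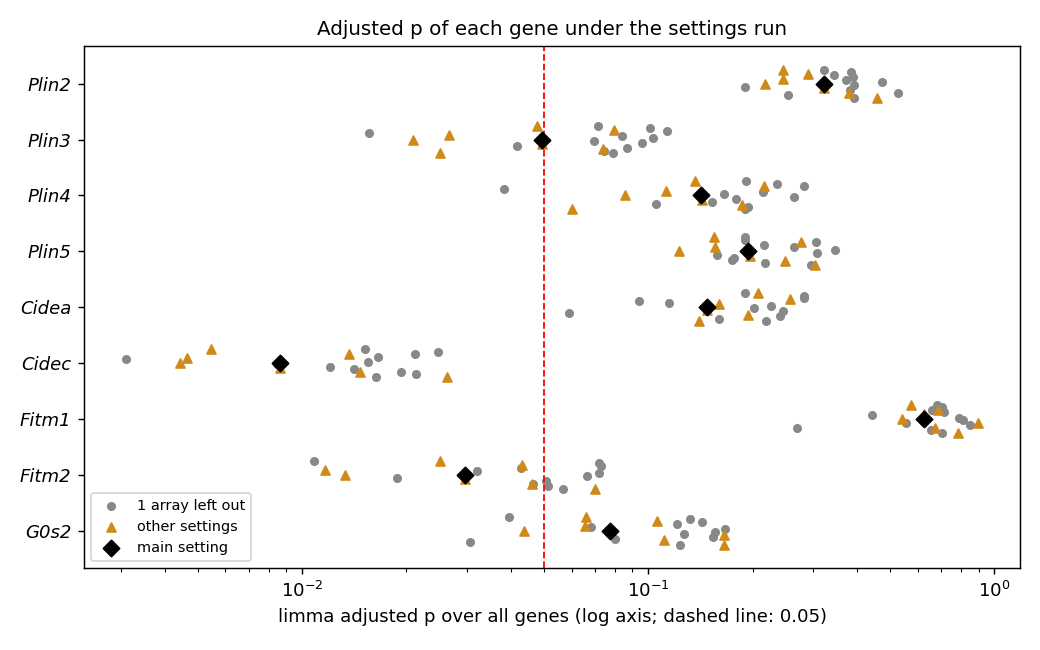
Limma adjusted p over all genes (horizontal log axis, dashed line at 0.05) of each gene in the main fit, in 12 fits that left out 1 array and under the other settings. Cidec lies left of the line throughout, Fitm2, Plin3 and G0s2 lie on both sides of it, Plin4 crosses it once, and Plin2, Plin5, Cidea and Fitm1 stay right of it.

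Whether the members varied together within a group was examined next. After the group means were subtracted, Pearson's r between members over the 12 arrays ranged from -0.80 to 0.59 with a median of 0.08, and 0 of 36 pairs passed after adjustment over the pairs by exact permutation within groups (2 pairs had an unadjusted p under 0.05). The lowest r was that of Plin3 and Cidea (-0.80, permutation p = 0.0023, adjusted p = 0.084; Spearman's rho -0.78, permutation p = 0.0086, adjusted p = 0.309). It was -0.71 within GFP livers, -0.93 within hApoF livers and -0.78 without the 2 arrays farthest from the median of Plin3. This pair passed after adjustment without GFP 5, when the count was 1. Cidea was dim, the arrays differed in their array-wide spread, and r after renewed quantile normalization was not examined. The second pair was Plin5 and Fitm2 (r = 0.57, permutation p = 0.045, adjusted p = 0.588; rho 0.60, permutation p = 0.049, adjusted p = 0.516), with r = 0.48 in GFP livers, 0.73 in hApoF livers and 0.84 without the 2 arrays farthest from the median. Over the other 22179 genes, the patterns of deviations most like that of Cidec were those of Gm6976 (r = 0.88), 1700095A13Rik (0.87) and 1700069L16Rik (0.87). For Fitm2 they were those of Olfr853 (0.93), Scg3 (0.92) and Ubxn11 (0.89), and for Plin3 those of Nup93 (0.94), Rnps1 (0.91) and 4930474H20Rik (0.90). Each rests on 12 arrays, which share their array-wide spread, and is the highest of a search over all genes.

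Among 31 measured genes of other droplet proteins, droplet lipid enzymes and droplet trafficking, 4 fell, 1 rose and 26 did not pass, with a median log2 change of -0.03. The share that passed was 16.1%, against 6.91% of all genes. Of these 31 genes, 1 had a mean below the median of all probe sets, so the share of all genes is not matched for brightness. Whether 16.1% exceeds the share among equally bright genes was not tested. Bscl2, which encodes seipin, the protein of droplet budding sites, fell by 0.51 on the log2 scale, from 8.11 ± 0.13 (SD, n = 6) to 7.60 ± 0.19 (n = 6), with no overlap between groups (SE 0.09, limma adjusted p = 0.0035). Dgat1, a triglyceride-forming enzyme of the endoplasmic reticulum, fell by 0.47 (SE 0.07, limma adjusted p = 8.5e-04), and Ldah, a droplet-bound hydrolase, fell by 0.41 (SE 0.08, limma adjusted p = 0.0057), both with groups that did not overlap. Hsd17b13, a droplet protein abundant in hepatocytes, fell by 0.29 (limma adjusted p = 0.039), and the riser was Rab3gap1, part of the activator of the droplet GTPase Rab18, at 0.25 (limma adjusted p = 0.033). Bscl2, Dgat1 and Ldah kept their call in all 12 omissions, while Hsd17b13 lost it in 9 and Rab3gap1 in 8. The count of risers was 0 without GFP 2, GFP 3, GFP 6, hApoF 9 or hApoF 10 and 2 without GFP 4.

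Of 19 measured targets of PPAR alpha, the receptor that switches on fat burning in the fasted liver, 5 fell, 0 rose and 14 did not pass, where 4.80% of all genes fell. The log2 change was below 0 for 17 of them, against 42.3% of all genes, and the median was -0.32. An unadjusted limma p under 0.05 was found for 13, all lower, against 21.3% of all genes in either direction. Of the 19 targets, 0 had a mean below the median of all probe sets, so the shares of all genes are not matched for brightness here either. The largest fall was that of Acot2, which splits acyl-CoA in mitochondria and resembles Acot1 closely (-1.88, SE 0.27, limma adjusted p = 4.1e-04). The log2 change was -0.34 for Angptl4, an inhibitor of lipoprotein lipase, -0.37 for Pex11a, which acts in peroxisome division, -0.32 for Slc25a20, which carries acylcarnitines into mitochondria, and -0.41 for Hadhb, an enzyme of beta-oxidation. Acot2 and Angptl4 kept their call in all 12 omissions, while Hadhb lost it in 9 and Pex11a and Slc25a20 in 5 each. Hadhb had a limma adjusted p of 0.042 in the main fit and a mean of 5.94 in GFP livers, where Slc25a20 had 9.89. Leaving out GFP 2, GFP 3, GFP 6 or hApoF 7 brought the count to 2, and leaving out hApoF 9 to 3. It was 6 without GFP 4, 9 among brighter genes only and 8 without GFP 4 and hApoF 12 together. Of 7 targets of PPAR gamma known from fat-laden liver, 1 rose, 0 fell (1 was lower at an unadjusted limma p under 0.05) and 6 did not pass, the riser being the acyl-CoA synthetase gene Acsl5 (0.30, limma adjusted p = 0.039, lost in 10 of 12 omissions).

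None of 16 genes for regulators of droplet genes passed the limma test, and 6 had an unadjusted p under 0.05 (4 of them lower), against 21.3% of all genes. That share is again not matched for brightness, as 0 of the 16 had a mean below the median of all probe sets. The lowest p were those of Nr1h4, the bile acid receptor FXR (0.23, SE 0.07, limma adjusted p = 0.077), and Pparg (-0.45, SE 0.15, limma adjusted p = 0.081). Pparg went from 6.90 ± 0.36 (SD, n = 6) to 6.45 ± 0.19 (n = 6).

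**Figure D3:**
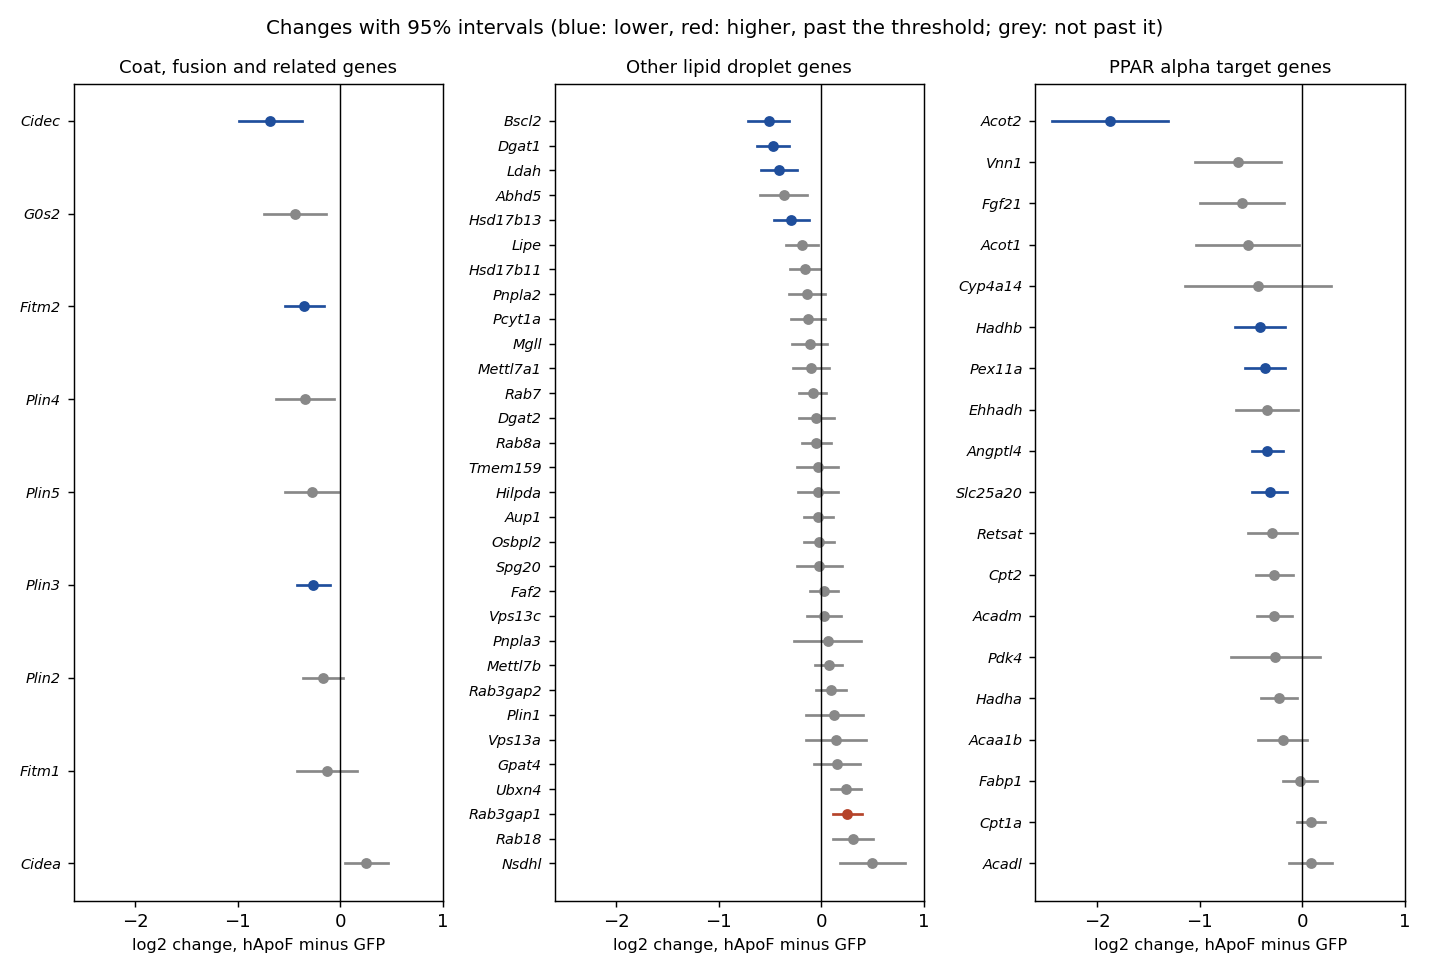
Log2 changes, hApoF minus GFP (horizontal axis), with 95% intervals from limma for the 9 measured coat, fusion and related genes, 31 other droplet genes and 19 PPAR alpha targets. Blue marks genes that fell, red genes that rose and grey genes that did not pass. Of the 9 genes on the left 8 lie below 0, and Acot2 on the right has the largest change drawn.

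Markers of other liver cells differed between the groups beside these changes. Over all genes 2.11% rose, 42.3% had a log2 change below 0 and 21.3% had an unadjusted limma p under 0.05 in either direction. These shares are not matched for brightness. Of 8 endothelial markers 2 rose (Kdr, 0.44, and Tek, 0.41), 8 had a log2 change above 0 and 6 an unadjusted limma p under 0.05, and the mean level of that list ranged from 7.99 to 8.49 in GFP livers and from 8.31 to 8.73 in hApoF livers. Of 10 macrophage and Kupffer cell markers 2 rose (Clec4f, 1.26, and Vsig4, 1.38), with 8 changes above 0, 3 unadjusted limma p under 0.05 and levels of 6.57 to 7.76 and 7.09 to 7.92. Stellate cells, which also store fat in droplets, had 3 of 10 markers higher, with 8 changes above 0, 6 unadjusted limma p under 0.05 and levels of 6.995 to 7.34 and 7.28 to 7.55. The risers were Rgs5 (0.54), Dcn (0.26) and Pdgfrb (0.28). Their part in the falls of Cidec, Fitm2 and Plin3 was not tested. In bulk liver, fewer cells of a type and less RNA per cell cannot be told apart.

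Adipocytes express Cidec, Plin4 and G0s2 strongly, so their markers were set beside these genes. Of 7 measured adipocyte markers 0 rose and 0 fell (1 had an unadjusted limma p under 0.05), with list levels of 4.85 to 5.04 in GFP livers and 4.93 to 5.06 in hApoF livers. Of these 7 markers, 4 had a mean below the median of all probe sets, which limits what this list can show. The lowest p were those of Lipe (-0.19, limma adjusted p = 0.146) and Adipoq (0.19, limma adjusted p = 0.253), and Adipoq had a mean of 4.27 in GFP livers, below the median of all probe sets. The fat coat gene Plin1 had means of 4.75 ± 0.24 (SD, n = 6) and 4.88 ± 0.27 (n = 6), a change of 0.13. Of 9 muscle markers, 10 hepatocyte markers, 5 bile duct markers and 5 lymphocyte markers, 0 passed the limma test. An unadjusted limma p under 0.05 was found for 0, 3, 3 and 1 of them, against 21.3% of all genes, a share not matched for brightness. Of those 3 hepatocyte markers 0 were lower, and the groups of Cps1 did not overlap (4.98% of all genes had no overlap). The log2 change was above 0 for 5, 9, 3 and 5 of them, where 42.3% of all genes were below 0. The hepatocyte list level ranged from 11.66 to 11.80 in GFP livers and from 11.73 to 11.95 in hApoF livers. Means lay below the median of all probe sets for 6, 0, 3 and 3 of them. The lowest p of these lists were those of Myh4 (-0.19) and Myh1 (0.16), Tat (0.27) and Cps1 (0.17), Epcam (0.29) and Sox9 (-0.31), and Cd79a (0.27) and Ms4a1 (0.22). Ms4a1 was at 5.11 in hApoF 12 and at 4.29 to 4.47 in the other hApoF arrays.

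**Figure D4:**
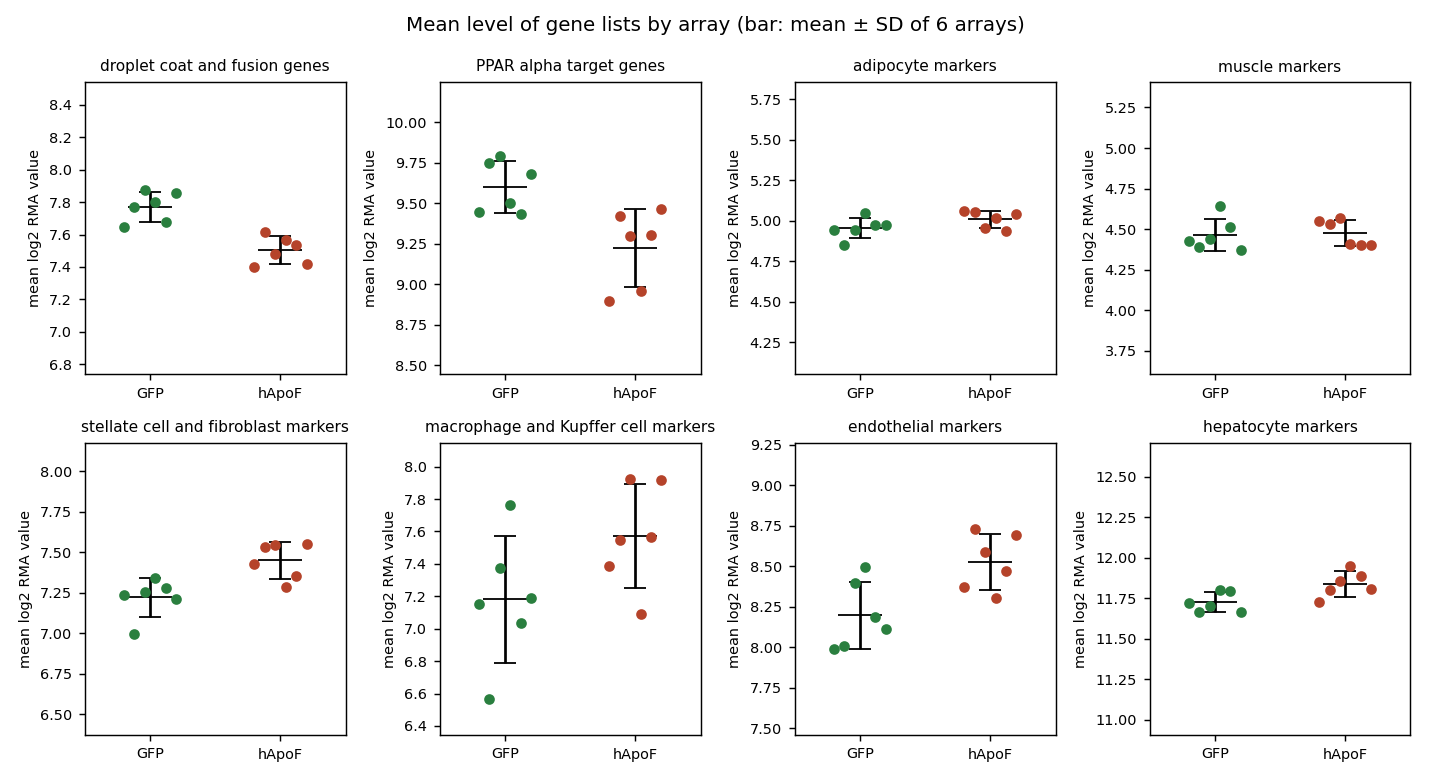
Mean log2 RMA value of the measured genes of 8 lists (vertical axes, each spanning the same number of log2 units) in each of 6 GFP and 6 hApoF livers, with mean ± SD. The droplet coat and fusion list lies lower in hApoF livers (7.40 to 7.61, against 7.65 to 7.88 in GFP livers), without overlap. The PPAR alpha list also lies lower in hApoF livers, with overlapping groups. The endothelial, macrophage, stellate and hepatocyte lists lie higher in hApoF livers with overlapping groups. The adipocyte and muscle lists lie at about the same level in both. Of their genes, 4 of 7 and 6 of 9 had a mean below the median of all probe sets.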

How the data were processed

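Liver RNA was measured on 12 one-colour arrays, 6 per group, grouped by the virus in the labels. The deposited log2 values per probe set were made by the authors with oligo and RMA (background correction, quantile normalization, median-polish summary), per the submitters' processing notes. Tool versions, settings and genome build: not given in the sources used here. Of 35145 probe sets, 23521 had 1 gene symbol in the supplied platform annotation, 1814 several and 9810 none. Genes were named by the brightest single-symbol probe set, giving 22180 genes, of which 1082 had more than 1 such probe set. RefSeq gene numbers matched 23328 probe sets, and 0 symbols changed. No filter was applied.

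Differences (hApoF minus GFP) came from limma 3.58.1 in R 4.3.3, with lmFit, eBayes and no covariates and from Benjamini-Hochberg adjustment over all genes with a threshold of 0.05. Single values were also tested by two-sided exact permutation over 924 assignments, for which 0.0022 is the smallest p. Planned pair counts fell to 8 and 36 because Cideb had no single-gene probe set. Tables and plots used Python 3.11.15 and matplotlib 3.10.9. RMA gives no depth, and the number of arrays limits the precision. The genes and lists were chosen with earlier results of these data known. Of the genes outside the 10 listed, those passing with the lowest p in each list are named, or the 2 with the lowest p where none passed. Alb, Plin1 and the muscle markers quoted for level were added.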

Additional observations from a re-analysis of the deposited data

Results flagged for a closer look

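In 6 of 82 sets of 6 arrays examined (each probe set of the droplet genes and each other named gene, in each group), 1 array lay far from the other 5. Chance alone flags about 5% of such sets. The dimmer Fitm1 probe set was at 5.72 in hApoF 12, where the other hApoF arrays were at 6.35 to 6.46, and the brighter Fitm1 probe set showed no such array. The adipocyte gene Adipoq was at 4.00 in GFP 6 (others 4.28 to 4.44), and the lipase gene Lipe at 5.74 in hApoF 7 (others 5.94 to 6.02). The B cell gene Ms4a1 was at 5.11 in hApoF 12 (others 4.29 to 4.47). The stellate marker Pdgfrb was at 6.65 in hApoF 10 (others 6.83 to 6.88), and Rab3gap1 at 7.83 in GFP 3 (others 8.02 to 8.07).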

How the results depend on the processing

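The 9 droplet genes were recomputed under 19 other settings, giving 170 values (Cidea is too dim for the fit of brighter genes). None changed sign, 20 lost a call and 4 gained one, and Cidec kept its call under all 19. With 1 array left out, the count of fallers ranged from 1 to 4 and that of risers was 0 throughout. The lower count of other droplet genes ranged from 3 to 4 and their higher count from 0 to 2, and the PPAR alpha lower count from 2 to 7. The count of family pairs whose changes differed ranged from 0 to 1, as did that of correlated pairs. The higher count of other droplet genes was 0 with centred arrays, 0 with all probe sets in the fit, 3 after renewed quantile normalization, 3 with trend and robust settings and 4 among brighter genes. The PPAR alpha lower count was 9 among brighter genes and 8 without GFP 4 and hApoF 12 together, a setting chosen after seeing the data, as were the omissions for the correlations. In all of these the cause was not tested. No paired analysis was possible because the groups share no replicate numbers. Fold changes of dim genes such as Cidea are limited by signal over background, which RMA values do not show.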
